A study of Mus musculus with 6 samples.

Results

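Thymic endothelial cells (ECs) stained for both Ly6c and Selp, called type II ECs in the sample labels, were set against the single-positive subsets on either side of them. RNA-seq gave 2 libraries of type II ECs (Ly6c+ Selp+), 2 of type I ECs (Ly6c+ Selp-) and 2 of type III ECs (Ly6c- Selp+), 6 in all. The mice were wildtype C57BL/6 females aged 4 to 6 weeks by the labels, all cells came from the thymus and were CD31+CD45-EpCAM-, and no group was treated or mutant. Every sort reached a purity of at least 90% by the labels. How many animals went into a library, and whether the duplicates came from separate animals, is not given in the sources used here, so that the p-values below measure the spread between libraries, which may be technical. A gene was counted as outside the other subsets when both type II values lay above, or both lay below, all 4 values of type I and type III ECs. Of 11717 genes with enough signal to be tested, out of 24457 on chromosomes, 1308 (11.2%) were outside in this sense, 348 (2.97%) above and 960 (8.19%) below. The same libraries chose these genes and gave their values, so the values of the members are a description of them.

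Blood that enters the thymus brings progenitor cells, which leave the vessels through postcapillary ECs that carry adhesion molecules such as P-selectin, the product of Selp. Ly6C proteins are small lipid-anchored surface proteins that are abundant on capillary endothelium and less so on venules specialised for the entry of leukocytes. A cell with both markers could be expected to hold intermediate levels of the genes that separate the single-positive subsets, and the question here is which genes do not follow such an order.

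Expression was given as FPKM, the fragments of a gene scaled by the length of its transcript and the depth of the library, and was compared as log2(FPKM + 1). Fragments read back from the intervals in the files summed to between 1452476 and 2423171 per library, and 3 fragments corresponded to 0.40 to 0.72 FPKM, the median in a library. The deposited values were not scaled between libraries, and summed to between 221458 and 300932. Pecam1, the gene of CD31, had an FPKM of 735 and 674 in type II ECs and between 496 and 867 in the other libraries. Over 13 genes of blood endothelium in general the summed FPKM was 2822 and 2744 in type II ECs, below the 3052 to 3628 of the others. These sums are of values not scaled between libraries. Of the 13 genes 1 (7.69%), Egfl7, lay below all 4 others, against 8.19% of all tested genes. It did not stay below under every scaling used further on. Ptprc, the gene of CD45, was at 6.05 and 4.47 in type II ECs and between 2.88 and 28.9 elsewhere, and Epcam was at 1.13 and 0.724 against 0.417 to 4.32.

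Most genes of type II ECs lay between the other subsets or overlapped them. The mean of type II ECs was between the means of type I and type III ECs for 4852 genes (41.4%), highest for 2238 (19.1%) and lowest for 4627 (39.5%). When type I ECs were put in the place of type II ECs, 2114 genes (18.0%) were outside the other 4 libraries, 1137 (9.7%) above and 977 (8.34%) below. With type III ECs in that place, 2492 genes (21.3%) were outside, 1508 (12.9%) above and 984 (8.4%) below. As deposited, the double-positive subset thus had the fewest genes outside the rest, and its count below, 960, was close to the counts below of the other subsets, while its count above, 348, was the smallest. The balance between above and below moved with the scaling of the libraries. The median log2 difference between type II ECs and the mean of the others was -0.09 over all tested genes as deposited, and 0.01, -0.00 and 0.01 after upper quartile scaling, median-of-ratios scaling and quantile normalisation. The split of 348 above and 960 below became 796 (6.79%) and 674 (5.75%), 726 (6.2%) and 770 (6.57%), and 778 (6.64%) and 720 (6.14%) under these. Of the 348 genes above, 288 (82.8%) were above under the deposited values and every one of these scalings, and of the 960 below, 512 (53.3%) were below under all of them.

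**Figure D1:**
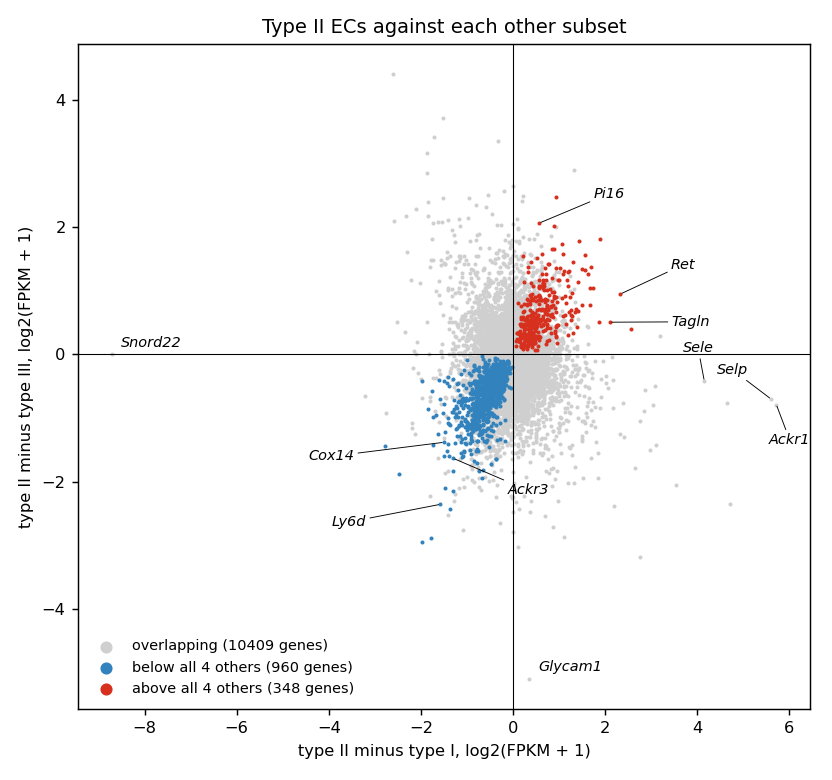
Difference in log2(FPKM + 1) between type II and type I ECs (horizontal axis) and between type II and type III ECs (vertical axis), 1 point per tested gene, each the difference of 2 means of 2 libraries. The 348 genes above all 4 other libraries fill the upper right and the 960 below fill the lower left, while Ackr1, Selp and Sele lie far to the right and just under 0 on the vertical axis.

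No gene passed limma's adjusted p of 0.05 against type I and type III ECs in the same direction, and 108 (0.922%) reached an unadjusted p under 0.05 in both. Against the equal-weight mean of the other subsets 5 genes (0.0427%) passed, 4 higher (0.0341%) and 1 lower (0.00853%), and 658 (5.62%) had an unadjusted p under 0.05. None of the 5 was among the 1308. Against type I ECs alone 46 genes (0.393%) passed, 38 higher (0.324%) and 8 lower (0.0683%) in type II ECs, and 877 (7.48%) had an unadjusted p under 0.05. Against type III ECs alone 26 (0.222%) passed, 15 higher (0.128%) and 11 lower (0.0939%), and 1170 (9.99%) had an unadjusted p under 0.05. These comparisons share the type II libraries. For a single gene, an exact permutation test of 2 libraries against 4 has 15 splits and cannot give a one-sided p below 0.0667. By the same count, were all libraries interchangeable, a share of 0.0667 of the genes would lie above and the same share below. The shares were 2.97% above and 8.19% below as deposited, and between 5.75% and 6.79% in each direction when scaled. With type I or type III ECs as the odd subset 18.0% and 21.3% of the genes were outside, so the libraries were not interchangeable. The share of 0.0667 therefore cannot say how many genes to expect outside in type II ECs. The number of members by itself is not taken to set type II ECs apart.

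The 4 genes that were higher than the equal-weight mean in limma were venular genes at high levels in both Selp+ subsets. Ackr1, the atypical chemokine receptor of venular endothelium, had an FPKM of 159 and 190 in type II ECs, 306 and 297 in type III ECs and 2.00 and 2.67 in type I ECs. Type II ECs were above type I and below type III ECs without overlap, and the log2 difference from the mean of the others was 2.47 (SE 0.21, limma adjusted p = 0.0048). Selp, which was used to sort the cells, was at 313 and 416 in type II ECs, 526 and 657 in type III ECs and 7.87 and 5.20 in type I ECs (log2 difference 2.45, limma adjusted p = 0.011). Sele, which encodes E-selectin, had values of 207 and 205, 269 and 283, and 12.7 and 8.85 in the same order (log2 difference 1.87, limma adjusted p = 0.023). In each of these the type II level was closer to type III than to type I ECs on the log2 scale, and none was outside the range of the other subsets. Gm16548, a non-coding RNA whose locus overlaps the end of Selp, was at 48.6 and 62.5, 97.6 and 92.1, and 1.23 and 1.23 (log2 difference 1.94, limma adjusted p = 0.023). Its reads may not be told apart from those of Selp where the loci overlap. Whether the counting used strand is not given in the sources used here. All 4 genes were lost without limma's trend, and Selp, Sele and Gm16548 also with no filter on low values. Gm16548 was lost with a pseudocount of 5 as well. Ackr1, Selp and Sele were lost without type II replicate 2. Selp was also lost without type III replicate 1, and Sele without any 1 of the type II or type III libraries. Gm16548 was lost in each of the 6 fits with a library left out.

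The gene called lower was Snord22, a small nucleolar RNA inside its host gene Snhg1. It had an FPKM of 339 and 521 in type I ECs and was listed at 0 in all 4 libraries of type II and type III ECs. The type I values rest on 1 and 2 estimated fragments of a gene of 126 bases, fewer than the 3 taken here as the floor, and they set type I ECs apart from both other subsets, not type II ECs.

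The genes named next are the 12 with the widest gap above among those whose FPKM averaged at least 5 in type II ECs, a limit that some genes with wider gaps at lower levels, such as Mamdc2 and Guca1a, did not reach. Ret had the widest gap of the 12. It encodes the receptor tyrosine kinase of the GDNF family of ligands and lies on chromosome 6 from 118101766 to 118147762 (mm9). Its FPKM was 15.7 and 19.0 in type II ECs, 8.09 and 8.91 in type III ECs and 2.61 and 2.65 in type I ECs. The 3 subsets did not overlap, with type II ECs the highest and type I ECs the lowest. The log2 difference was 2.33 against type I ECs, 0.95 against type III ECs and 1.64 (SE 0.24) against their mean. Its limma adjusted p was 0.127, and 0.040 with the replicate number as a block, and over all alternatives it ran from 0.027 to 0.831. Ret rested on 219 and 416 estimated fragments in type II ECs.

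Prelp, Lum, Fbn1 and Ltbp1, 4 of these 12 genes, encode proteins of the extracellular matrix. Prelp, a small leucine-rich proteoglycan of basement membranes, was at 37.1 and 36.8 in type II ECs, 22.1 and 12.005 in type I ECs and 16.9 and 21.8 in type III ECs. Lum, or lumican, of the same protein family, was at 23.4 and 14.8, 9.01 and 3.81, and 6.91 and 6.63. Type I and type III ECs overlapped for both genes and both type II libraries lay above them, with log2 differences of 1.02 (SE 0.28, limma adjusted p = 0.846) and 1.42 (SE 0.34, limma adjusted p = 0.699). Fbn1, which encodes the microfibril protein fibrillin, was at 33.3 and 34.9 against 17.8 to 24.0 in the other libraries, with a log2 difference of 0.65. Ltbp1, whose product binds latent TGF-beta, was at 13.0 and 9.38 against 3.08 to 6.39, with a log2 difference of 1.07. For Fbn1 and Ltbp1 too the other subsets overlapped, so that these 4 genes show no order between type I and type III ECs.

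A second group above was also higher in type I than in type III ECs. Pi16, a secreted peptidase inhibitor, was at 10.3 and 11.98 in type II ECs, 7.17 and 7.12 in type I ECs and 2.18 and 1.65 in type III ECs. Tbx2, a T-box transcription factor, was at 9.38 and 9.28, 6.63 and 6.53, and 3.84 and 4.00 in the same order. C1qtnf2, which encodes a secreted protein with a C1q domain, was at 8.41 and 6.15, 2.85 and 4.05, and 1.33 and 0.769. In these, both Ly6c+ subsets lay above type III ECs and the double-positive one was the higher of them. Gkn3, a gene of the gastrokine family, was at 10.2 and 5.95 in type II ECs, 3.79 and 3.47 in type I ECs, and 1.53 and a listed 0 in type III ECs, on 14 and 13 estimated fragments in type II ECs. Bicc1, which encodes an RNA-binding protein, had values of 7.98 and 7.06, 3.63 and 4.76, and 3.54 and 2.14. The other members of the 12 were Entpd2, an ectonucleotidase that splits extracellular ATP, at 10.7 and 8.38 against 2.79 to 5.22, and Fdx1, a mitochondrial iron-sulphur protein, at 5.84 and 7.39 against 3.14 to 4.11. None of the 12 passed limma's adjusted p without the block, and all 12 stayed above under every scaling.

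**Figure D2:**
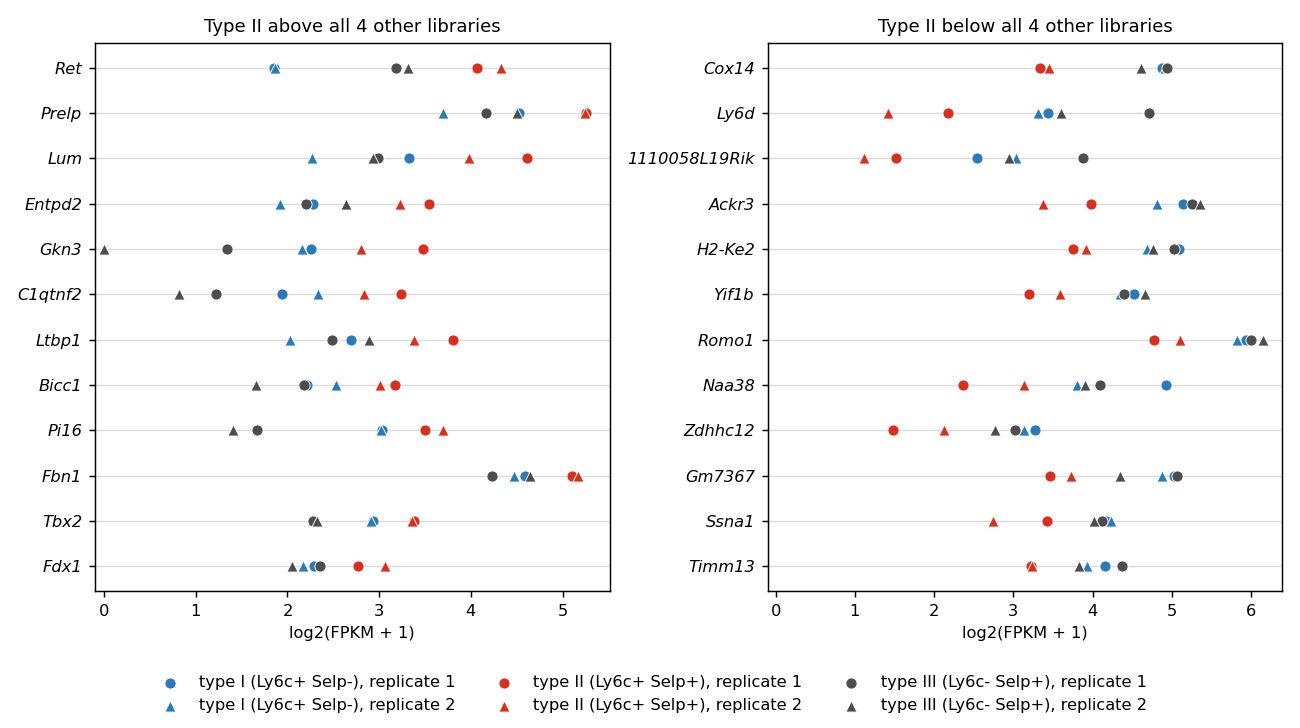
Level of the 12 genes with the widest gap above (left, FPKM averaging at least 5 in type II ECs) and the 12 with the widest gap below (right, FPKM averaging at least 5 in both other subsets) in each library, as log2(FPKM + 1), coloured by subset and with a symbol for each replicate. In each row both red type II points lie outside the 4 blue and grey points, with the widest gap at the top, and the blue and grey points of most rows overlap.

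Cox14, needed for the assembly of cytochrome c oxidase, had the widest gap below among genes whose FPKM averaged at least 5 in both other subsets. Hist2h4, under that limit, had a wider gap. Cox14 lies on chromosome 15 from 99556049 to 99558567 (mm9). Its FPKM was 9.08 and 9.88 in type II ECs, 28.3 and 29.0 in type I ECs and 29.6 and 23.3 in type III ECs. Both type II values were well under the others, and type I and type III ECs overlapped. The log2 difference was -1.44 (SE 0.22), with a limma adjusted p of 0.143, and of 0.040 with the replicate block, and over all alternatives it ran from 0.040 to 1.00. The type II values rest on 11 and 19 estimated fragments.

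Ackr3, which encodes the atypical receptor that takes up CXCL12, was at 14.7 and 9.35 in type II ECs, 34.1 and 27.0 in type I ECs and 37.1 and 40.1 in type III ECs. Its level in the double-positive cells was thus below both single-positive subsets, whereas that of Ackr1, the other atypical chemokine receptor named here, lay between them. The log2 difference of Ackr3 was -1.47 (SE 0.25, limma adjusted p = 0.244, and 0.045 with the replicate block, from 0.045 to 0.775 over all alternatives). Ly6d, a gene of the same family as Ly6c1 that is known from lymphocytes and epithelium, was at 3.52 and 1.66 in type II ECs, 9.82 and 8.91 in type I ECs and 25.1 and 11.1 in type III ECs. Its adjusted p was 0.355 in limma and 0.040 with the replicate block, from 0.040 to 0.871 over all alternatives, on 4 and 3 estimated fragments in type II ECs. The sorting marker Ly6c1, which may share reads with the near-identical Ly6c2, followed the gates, at 522 and 351 in type II ECs, 1010 and 692 in type I ECs and 99.6 and 59.7 in type III ECs.

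The rest of the 12 genes with the widest gap below at that level included 3 with mitochondrial products, Romo1, Timm13 and 1110058L19Rik. Romo1, which encodes a small protein of the mitochondrial inner membrane, was at 26.5 and 33.4 in type II ECs, 60.4 and 55.5 in type I ECs and 62.9 and 69.6 in type III ECs, with a log2 difference of -1.03 (SE 0.21, limma adjusted p = 0.406). Timm13, a chaperone of protein import into mitochondria, was at 8.29 and 8.43 against 13.1 to 19.7. 1110058L19Rik, listed by RefSeq as a synonym of Sdhaf4 for the assembly of succinate dehydrogenase, was at 1.86 and 1.17 against 4.82 to 13.7, on 2 estimated fragments in each type II library. For Romo1 type III ECs lay above type I ECs, and for Timm13 and 1110058L19Rik the values of type I and type III ECs overlapped. H2-Ke2, a synonym of the prefoldin gene Pfdn6, was at 12.5 and 14.2 against 24.8 to 33.0, and Ssna1, for a microtubule-associated protein, was at 9.68 and 5.72 against 15.2 to 17.8. Yif1b of the early secretory pathway, Naa38 of an N-terminal acetyltransferase, and the palmitoyltransferase gene Zdhhc12 had type II values of 8.19 and 10.99, 4.15 and 7.76, and 1.79 and 3.36. The loci of Romo1, Yif1b, Naa38, Zdhhc12 and Timm13 overlap a neighbouring gene in the files, so that part of their fragments may be uncertain. The gene listed as Gm7367 shares its locus on chromosome 11 with Ubald2, while the annotations at hand place Gm7367 on chromosome 7, and its values of 9.99 and 12.2 against 19.3 to 32.6 are therefore uncertain as to the gene.

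Promoters of 3 of these genes are printed as examples of windows with and without the ETS core, the letters CCGGAAG bound by ETS factors, whose share was unequal between the genes above and below. RefSeq sequences on GRCm38.p6, from 250 bases before to 50 after a start site, were matched by symbol for 248 of the 348 genes above and 734 of the 960 below. Capitals mark matches to the ETS core or to the CCAAT box (CCAAT), searched on both strands. Prelp lies at chr1:133921352-133921651 on the minus strand, Cox14 at chr15:99725368-99725667 on the plus strand and Romo1 at chr2:156143983-156144282 on the plus strand.
Prelp: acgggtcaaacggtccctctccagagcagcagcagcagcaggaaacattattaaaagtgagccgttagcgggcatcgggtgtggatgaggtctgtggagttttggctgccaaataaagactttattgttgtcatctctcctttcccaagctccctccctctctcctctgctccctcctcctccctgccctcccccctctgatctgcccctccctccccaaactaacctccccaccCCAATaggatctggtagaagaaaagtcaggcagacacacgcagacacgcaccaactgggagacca
Cox14: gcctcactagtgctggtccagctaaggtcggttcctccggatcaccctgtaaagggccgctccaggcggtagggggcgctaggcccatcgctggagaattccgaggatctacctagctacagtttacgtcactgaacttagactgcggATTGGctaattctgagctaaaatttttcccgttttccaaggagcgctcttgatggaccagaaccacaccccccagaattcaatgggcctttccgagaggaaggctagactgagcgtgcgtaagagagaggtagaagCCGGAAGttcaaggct
Romo1: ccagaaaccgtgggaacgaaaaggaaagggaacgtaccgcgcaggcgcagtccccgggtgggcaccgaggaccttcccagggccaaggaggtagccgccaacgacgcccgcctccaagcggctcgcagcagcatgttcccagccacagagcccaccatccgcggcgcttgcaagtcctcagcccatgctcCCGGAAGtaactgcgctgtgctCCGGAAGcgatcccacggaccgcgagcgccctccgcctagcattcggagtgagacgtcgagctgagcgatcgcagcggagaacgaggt
The Romo1 window holds 2 matches to the ETS core and the Cox14 window holds 1, and the Prelp window holds a CCAAT box only. Among the promoters of genes below, 20.6% held the ETS core, against 11.5% of those above, 16.9% of those of all tested genes and 8.86% of all in the RefSeq table. The CCAAT box was in 38.7% of the promoters below and 37.4% of those above, and the Sp1 box (GGGCGG) in 62.2% and 54.6%, against 36.9% and 62.6% of those of all tested genes. The TATA box (TATAAA) was in 7.18% and 8.31% against 7.19%, and the AP-1 site (TGACTCA) in 3.43% and 4.15% against 3.79%. These are shares of windows with the letters and were not tested.

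Genes of DNA replication and mitosis were the list with the largest share below as deposited among lists of 8 or more tested genes. Of 31 tested, 10 (32.3%) lay below all 4 others and none above, against 8.19% and 2.97% of all tested genes, and the median log2 difference was -0.42 against -0.09. None passed limma's adjusted p, and 6 had an unadjusted p under 0.05, each of them lower. Stmn1, which encodes a protein that destabilises microtubules, was the most abundant, at 10.9 and 17.3 in type II ECs, 32.0 and 25.03 in type I ECs and 40.4 and 21.998 in type III ECs. Mcm2 and Mcm7, subunits of the replicative helicase, were at 4.37 and 4.41 against 5.96 to 14.04, and at 4.03 and 3.68 against 4.77 to 14.8. Ccna2, the gene of cyclin A2, was at 0.806 and 0.721 against 1.68 to 4.78, and Aurka, a mitotic kinase, at 0.498 and a listed 0 against 1.51 to 4.48. Both type II libraries were low for these genes and type III replicate 1 was high. The same list had 8, 9 and 8 genes below after upper quartile, median-of-ratios and quantile scaling, against 5.75%, 6.57% and 6.14% of all tested genes. Fewer dividing cells and less of these RNAs per cell cannot be told apart in bulk samples. Thymocytes divide as well, and 14 of 15 tested thymocyte markers had a negative difference, with a median of -0.69 and 2 (13.3%), Tcf7 and Themis, below all 4 others. The summed FPKM of all 17 measured thymocyte markers was 126 and 83.4 in type II ECs, inside the 66.9 to 303 of the others. The part of thymocyte RNA in the cell cycle values was not tested.

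Of 88 tested nuclear genes of the respiratory chain, 13 (14.8%) lay below and 2 (2.27%) above, against 8.19% and 2.97% of all tested genes, with a median log2 difference of -0.22. Cox4i1 and Cox6a1, subunits of cytochrome c oxidase, were at 161 and 140 against 176 to 211, and at 177 and 158 against 181 to 245. Ndufb11 of complex I was at 31.5 and 27.4 against 39.7 to 47.2, and Atp5o of the ATP synthase at 42.9 and 25.2 against 45.4 to 70.7. The shifts were small next to that of Cox14, and none passed limma's adjusted p. Of the list, 10, 11 and 7 genes were below after upper quartile, median-of-ratios and quantile scaling, where 5.75%, 6.57% and 6.14% of all tested genes were, so that the count under quantile normalisation is near that of all genes. Ndufs5, 1 of the 2 above, owes its place to a value of 0.0015 in type I replicate 1 beside 20.2 to 34.1 in the other libraries. Of 74 genes of mitochondrial ribosomal proteins, a list added after values had been seen, 13 (17.6%) lay below and none above, against 8.19% and 2.97% of all tested genes, with 12 below under each scaling. Mrps34 was at 5.52 and 5.44 against 8.45 to 15.97, and Mrpl12 at 9.70 and 9.04 against 13.4 to 19.4. Cytosolic ribosomal proteins had 4 of 83 tested genes (4.82%) below and 1 above. The share of genes below also varied with transcript length, as described further on. In the decile of genes with the shortest annotated transcripts it was 12.3% as deposited and 12.1% after median-of-ratios scaling. The part of transcript length in the counts of these lists was not tested.

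**Figure D3:**
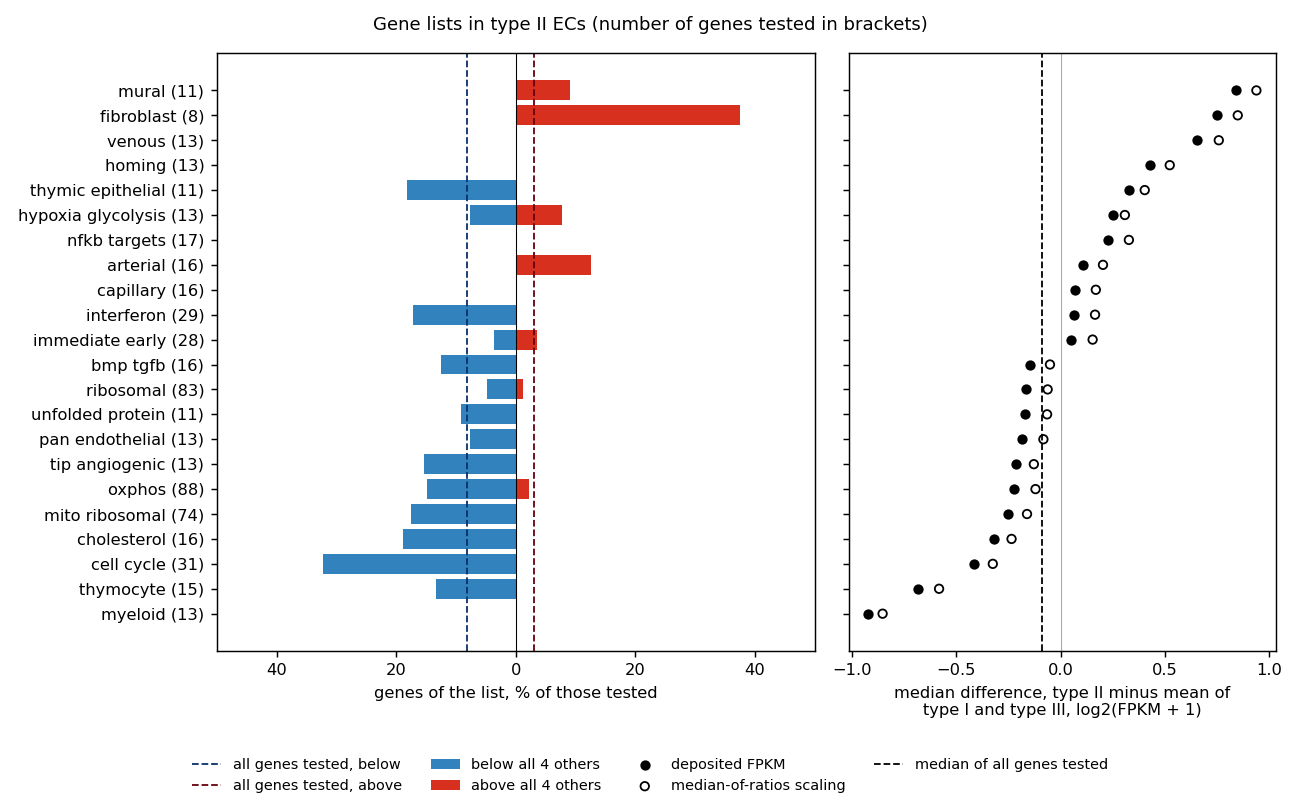
Share of each list's tested genes below (blue, to the left) and above (red, to the right) all 4 other libraries, with dashed lines at the 8.19% and 2.97% of all tested genes, and on the right the list's median log2 difference as deposited (filled) and after median-of-ratios scaling (open). Lists of 8 or more tested genes are shown, and the cell cycle list has the longest blue bar at 32.3% and the fibroblast list the longest red bar at 37.5%.

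Genes of fibroblasts and of mural cells, which wrap vessels, had the highest medians. All 8 tested fibroblast genes had a positive difference from the mean of the others, with a median of 0.75, and 3 (37.5%) lay above all 4 others, against 2.97% of all tested genes. Under each of the 3 scalings 7 of the 8 lay above, against 6.79%, 6.2% and 6.64% of all tested genes. Pdgfra, a receptor that marks fibroblasts, was at 9.83 and 3.72 in type II ECs against 1.89 to 3.41, and Col1a1, a chain of type I collagen, at 64.7 and 48.2 against 24.0 to 43.4. The sum over the 8 genes was 456 and 275 in type II ECs, 278 and 167 in type I ECs and 184 and 182 in type III ECs. Type II replicate 2 was thus level with type I replicate 1, and within each replicate number the type II library had the highest sum. Of 11 mural genes all had a positive difference, with a median of 0.84, and 1 (9.09%) lay above all others, against 2.97% of all tested genes. That gene, Tagln, for an actin-binding protein of smooth muscle, was at 114 and 137 in type II ECs, 33.6 and 23.8 in type I ECs and 77.2 and 100.5 in type III ECs (log2 difference 1.31, SE 0.23, limma adjusted p = 0.293). Its locus overlaps Pcsk7. The summed mural genes, at 629 and 484 in type II ECs, 639 and 276 in type I ECs and 184 and 268 in type III ECs, overlapped between type I and type II ECs. The part of fibroblast and mural RNA in the levels of Prelp, Lum, Fbn1, Ltbp1, Pi16 and Tagln was not tested.

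Myeloid, thymocyte and B lineage markers had negative medians. The 13 tested myeloid genes had a median log2 difference of -0.92 and 12 of 13 were negative, with none outside. The sum over all 14 measured genes of the list was 608 and 338 in type II ECs, 964 and 230 in type I ECs and 1812 and 576 in type III ECs, so that replicate 1 was the higher library in every subset. Of 6 tested B cell and plasma cell genes all were negative, with a median of -0.82. Of these, 2 (33.3%) lay below all others, against 8.19% of all tested genes. Of 4 tested platelet genes, Pf4 and Nrgn lay above, where 2.97% of all tested genes did, and the median of the list was 0.08. Pf4 rests on 1 and 5 estimated fragments in type II ECs. The other tested platelet genes, Itgb3 and Clec1b, had negative log2 differences of -0.28 and -0.23. None of 4 tested red blood cell genes was outside, and their median was 0.35. Of 11 tested thymic epithelial genes 2 (18.2%) lay below, against 8.19% of all tested genes, while 6 had a positive difference and the median was 0.33. These 2 were Krt5, at 2.54 and 1.49 in type II ECs against 3.51 to 12.5, and Krt14, at a listed 0 in both against 0.350 to 3.99. Each stayed below under all scalings, and Krt5 rests on 12 and 11 estimated fragments in type II ECs. Within the same replicate number, 7 of the 13 myeloid genes were lowest in type II ECs both times. With the replicate block, C1qc of the complement component C1q, at 33.9 and 7.92 in type II ECs, 74.2 and 14.7 in type I ECs and 100.3 and 24.0 in type III ECs, passed limma's adjusted p at 0.043, from 0.971 without it (0.031 to 1.00 over all alternatives). Cd52 and Alox5ap, both genes of leukocytes, passed with the block as well, at 0.040 and 0.048. Cd52 passed under that 1 alternative of 16, with an adjusted p up to 1.00, and was lost with the block and median-of-ratios scaling, and Alox5ap ran from 0.047 to 1.00. In all, 15 genes passed with the block, 7 higher (0.0597%) and 8 lower (0.0683%), and 5 of the 15 were among the 1308, namely Ret, Cox14, Ly6d, Ackr3 and Alox5ap.

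**Figure D4:**
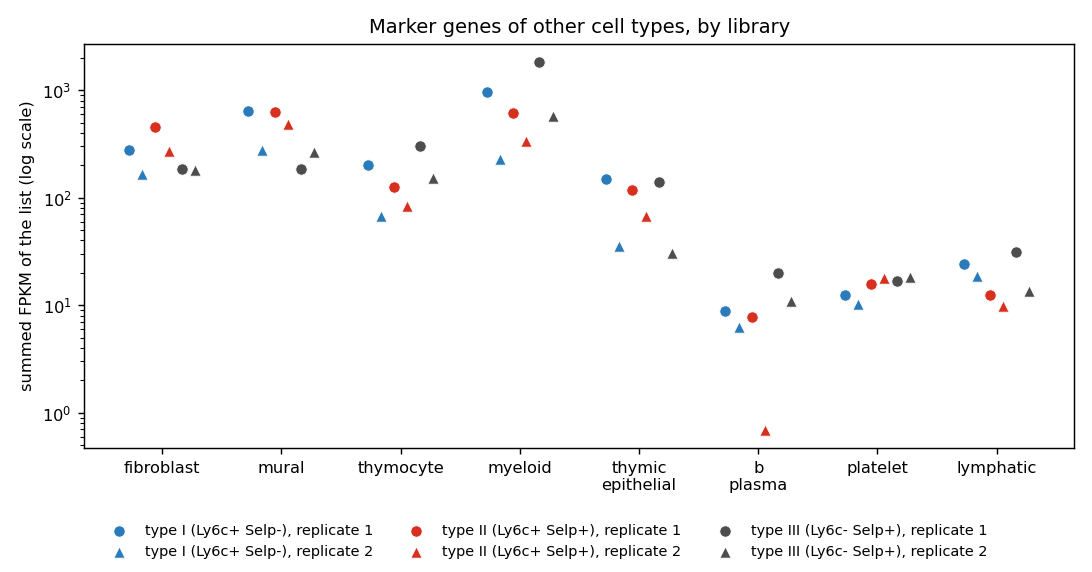
Summed FPKM of all measured marker genes of other cell types in each library, on a log axis, with subsets by colour and replicates by symbol. Type II libraries lie inside or next to the range of the others for thymocyte, myeloid, mural and thymic epithelial genes, the fibroblast sum is highest in type II ECs within each replicate number, and the B cell and plasma cell sum of type II replicate 2 is the lowest point.

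As deposited, 11.2% of all tested genes lay outside the other subsets. None of 13 tested venous genes, 13 leukocyte homing genes and 16 capillary genes lay above or below all 4 others, and their medians were 0.66, 0.43 and 0.07. Under each scaling 1 venous gene lay above. Vwf, the gene of von Willebrand factor, was at 163 and 259 in type II ECs, 14.9 and 18.5 in type I ECs and 669 and 1095 in type III ECs. Glycam1, a mucin-like ligand of L-selectin, was at a listed 0 and 0.635 in type II ECs, listed at 0 in both type I libraries and at 33.1 and 54.98 in type III ECs. For Vwf type II ECs were between the others, and for Glycam1 they were with type I ECs. Of 16 arterial genes 2 (12.5%) lay above, against 2.97% of all tested genes, and 1 did under each scaling. Jag1, a Notch ligand, and Hey2, a target of Notch, were these genes, at 22.6 and 21.5 against 14.3 to 19.6 and at 1.44 and 1.38 against 0.444 to 1.31, and Hey2 did not stay above under every scaling.

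Interferon-stimulated genes were split. Of 29 tested, 5 (17.2%) lay below and none above, against 8.19% and 2.97% of all tested genes, although 16 of the 29 had a positive difference. Irf7, the transcription factor of the interferon response, was at 33.7 and 31.2 in type II ECs, 67.0 and 48.4 in type I ECs and 42.1 and 45.2 in type III ECs. Bst2, for the antiviral protein tetherin, was at 274 and 218 against 303 to 338. The other 3 below were Ifit3, Isg15 and Oas1a. Bst2 did not stay below under every scaling, while Irf7, Ifit3, Isg15 and Oas1a did. In the BMP and TGF-beta pathway 2 of 16 (12.5%) lay below, a share near the 8.19% of all tested genes. They were the ligand gene Tgfb1 at 28.1 and 36.1 against 46.3 to 59.9 and the receptor gene Tgfbr2 at 48.3 and 39.1 against 55.5 to 73.4. Both stayed below under every scaling. No gene of this list lay above as deposited, and 2 did under each scaling, where 6.79%, 6.2% and 6.64% of all tested genes lay above. Of 16 genes of cholesterol synthesis 3 (18.8%) lay below, against 8.19% of all tested genes, among them Fdps, for farnesyl diphosphate synthase, at 3.25 and 2.84 against 4.31 to 7.31. None of these passed limma's adjusted p.

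Genes above had longer annotated transcripts than genes below at the median. The longest annotated transcript in GENCODE, on the assembly of the files, had a median of 3900 bases for the genes above, 2576 for those below and 3117 for all tested genes, with 93.2% of the tested genes matched by symbol and position. From the shortest to the longest decile of the genes the share below went from 12.3% to 3.75%, and the share above from 2.65% to 6.77%. After median-of-ratios scaling the same shares went from 12.1% to 2.47% and from 3.84% to 11.9%. The pattern was thus not removed by scaling. In each replicate number taken alone, and with the median of all genes set to 0, the log2 difference of type II ECs from the other subsets had a median of -0.16 and -0.11 in the shortest decile and of 0.15 and 0.09 in the longest. A trend in this direction was also present in a type I library. Set against the mean of all 6 libraries, the median in the shortest and longest decile was -0.06 and 0.04 in type II replicate 1, -0.10 and 0.12 in type II replicate 2, and -0.04 and 0.06 in type I replicate 2, while type I replicate 1 had 0.09 and -0.12. Among named genes, Fbn1 has 11971 bases, Ret 7341 and Ltbp1 6671, while Romo1 has 569, 1110058L19Rik 683 and Ly6d 691. The part of fragment size, RNA quality or length correction in this was not tested, and the files give no values for them.

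**Figure D5:**
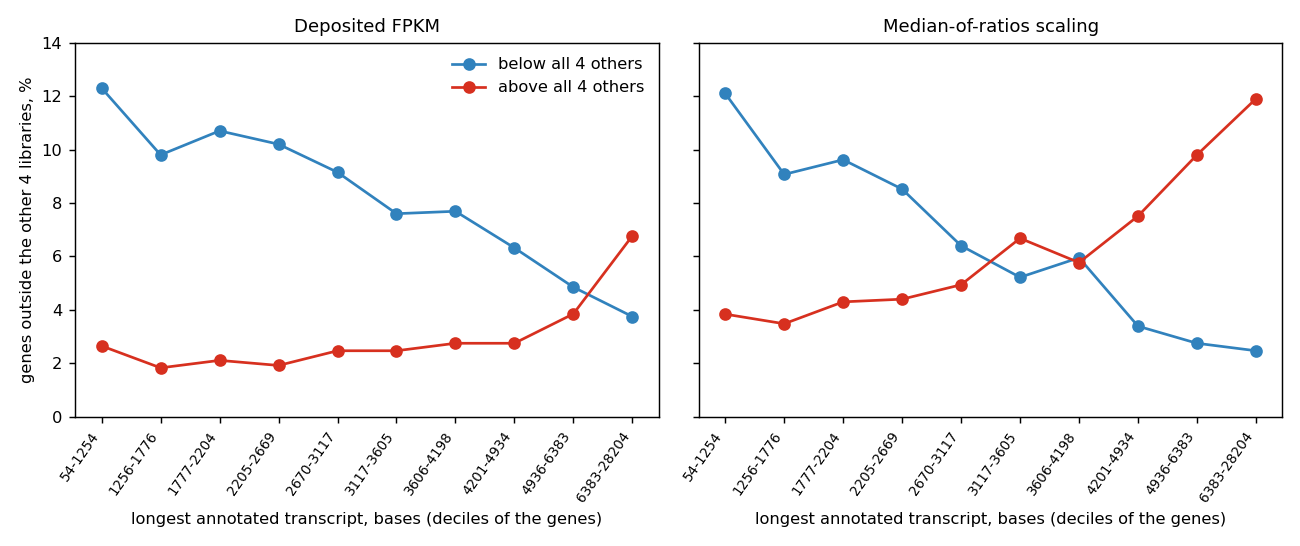
Share of genes below (blue) and above (red) all 4 other libraries in deciles of the genes by the length of the longest annotated transcript, for the deposited FPKM (left) and after median-of-ratios scaling (right). The blue line goes down to the right, from 12.3% to 3.75% on the left panel, and the red line goes up, from 2.65% to 6.77%.

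The members were mostly modest in size. The median log2 difference was 0.54 for the genes above and -0.53 for those below, and 21 and 45 genes differed by at least 1 on the log2 scale from the mean of each other subset. The median of the mean FPKM was 2.78 above, 6.399 below and 6.26 over all tested genes, and 136 genes above and 484 below had at least 20 estimated fragments in every library. An unadjusted p under 0.05 against the mean of the others was reached by 107 (30.7%) and 322 (33.5%). At the border, the collagen gene Col15a1 was not counted as above with 376.04 and 377.45 in type II ECs and 376.06 in type III replicate 2, whereas the signalling gene Rasal2 was, with 13.2 and 11.916 against at most 11.911. Type I and type III ECs overlapped for 229 of the genes above (65.8%) and 687 of those below (71.6%).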

How the data were processed

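RNA of sorted thymic ECs was sequenced in 6 libraries. Per the labels and the submitters' processing notes the authors used CASAVA 1.8, TopHat2 2.0.10, Cufflinks 2.1.1 and Cuffdiff on mm9, and deposited FPKM with the bounds of its 95% interval for each library. The gene annotation is not given in the sources used here. The members and lists were chosen with earlier results of these data known, and the mitochondrial ribosomal list after values were seen. Genes on chromosomes that reached 1 FPKM in 2 or more libraries were compared as log2(FPKM + 1), which understates changes of low genes. One model over 6 libraries with a mean for each of the 3 subsets was fitted in limma 3.58.1 (R 4.3.3, trend on). Contrasts were adjusted by Benjamini-Hochberg at 0.05. The method was run on simulated data with independent libraries and shifts of 2 or 3 log2 units. Most members had smaller differences, which that run did not check. Fragments were estimated from the interval bounds as counting error alone. Named genes are the 12 with the widest gap in each direction, at a mean FPKM of at least 5 in type II ECs (above, the group where they are high) or in both other subsets (below), called genes (at most 10 in each direction), list members outside by at least 1.5-fold, and sort markers. Other genes named (those called with the replicate block and further list members) were chosen after their values were seen. The replicate numbers were taken to pair the libraries, since the replicate 1 minus 2 differences correlated across 11717 genes at 0.20, 0.31 and 0.18 between subsets, and blocked values are given where they change a call. Alternatives were other pseudocounts (0.1 and 5), filters, scalings, the block, no trend and each library left out, where the lone library of a subset is assumed to vary like the rest. Spike-in and reporter rows did not enter the tests. Figures were drawn with matplotlib 3.10.9.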

Additional observations from a re-analysis of the deposited data

Results flagged for a closer look

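The files hold rows for reporter and spike-in sequences that no comparison used. The row named RGC-mRFP had an FPKM of 23.7 and 5.31 in type II ECs, 18.2 and 1.83 in type I ECs and 28.3 and 3.23 in type III ECs, on 31 and 11, 32 and 4, and 34 and 7 estimated fragments, each above the 3 that a count of 0 allows. Replicate 1 was the higher library in every subset, and the labels call the mice wildtype. The row named RGC-GFP was above that limit in type III replicate 2, at 2.37 on 5 estimated fragments.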

How the results depend on the processing

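With the replicate number as a block, 15 genes passed against the mean of the others in place of 5, and 26 with the block and median-of-ratios scaling, a setting added after seeing the data, while 2 passed with no filter, 1 without the trend and 1 to 4 with a library left out, namely 1 (Snord22) without type II replicate 2, 2 without type III replicate 1 and 3 without type III replicate 2. The 1308 genes outside became 673 at a mean FPKM of at least 5, 2694 when compared within replicate numbers, 2838 when also scaled, and 1837 to 3892 with a library left out (2701 without type I replicate 2, 3413 and 3892 without type II replicate 1 or 2), where fewer values bound the range. Against type I ECs 46 became 12 with no filter, 98, 101 and 103 with upper quartile, median-of-ratios and quantile scaling, 183 with the block, 297 with block and scaling, 15 without the trend, 29 with only these subsets and 12 (without type II replicate 2) to 33 with a library left out. Against type III ECs 26 became 0, 100, 96, 90, 229, 319, 10, 7 and 2 (without type III replicate 2) to 14 in the same settings. The cause of these moves was not tested. No gene passed against both subsets in 1 direction under any alternative run. Of 77 named genes, 2 changed sign: Epcam, at 0.058 without type III replicate 1 and -0.90 without type III replicate 2, and Pecam1, at -0.089, -0.044 and -0.0058 without type I replicate 2, type II replicate 1 and type III replicate 2, and 0.13 without type I replicate 1. At the median, 3 fragments corresponded to 0.40 to 0.72 FPKM, depending on the library, and for a single gene this level depends on the length of its transcript. Levels near or under it rest on few fragments.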

Other observations

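Among the 45 genes that were at least 1 lower on the log2 scale than each other subset were genes of DNA replication that belong to no list above, named after their values were seen. Cdt1, which loads the replicative helicase, was at 0.212 and 0.541 in type II ECs, 2.56 and 2.18 in type I ECs and 6.50 and 3.90 in type III ECs. Mybl2, a transcription factor of dividing cells, was listed at 0 in both type II libraries and was between 0.874 and 1.73 elsewhere. The histone genes Hist2h4, Hist1h3c and Hist1h1b were listed at 0 in both type II libraries and above 1 FPKM in every other. Their levels are close to the limit of detection, and histone genes share reads with near-identical copies.

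Among the 21 genes at least 1 higher than each other subset was Inhba, which encodes a subunit of activin, at 2.23 and 2.23 in type II ECs, 0.240 and 0.192 in type I ECs, and a listed 0 and 1.17 in type III ECs. Htr2a, a serotonin receptor gene, was at 4.10 and 5.82 against 0.690 to 2.61. Smoc2, a matricellular protein gene, was at 11.7 and 5.52 against 1.84 to 4.48, and Lmod1, a smooth muscle gene, at 3.14 and 4.81 against 0.119 to 2.30. Of 13 tested hypoxia and glycolysis genes 1 (7.69%) lay above and 1 (7.69%) below, against 2.97% and 8.19% of all tested genes. Hk2, for hexokinase 2, was the gene above, at 2.84 and 1.97 against 0.576 to 1.76. Ldha, for lactate dehydrogenase, lay narrowly below, at 113.9 and 113.5 against 114.0 to 155, and did not stay below under every scaling. Under each scaling 4 genes of the list lay above and none below, where 6.79%, 6.2% and 6.64% of all tested genes lay above.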
